A study of Homo sapiens with 12 samples.

Results

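The DNA replication machinery was followed as 51 genes whose products license, unwind, copy and supply replicating DNA, and that were chosen by name, a rule that uses no measured value. All 51 were found among the 58302 Ensembl genes of the count table by matching identifiers to GENCODE v44 symbols, and all 51 were among the 17188 genes that passed the filter on low counts. RNA was sequenced from NCIH838 cells, a human lung cancer line, carrying a doxycycline (Dox)-inducible Cas9 and a guide RNA against *MIB1*, which encodes a RING-type E3 ubiquitin ligase (MIB1-iKO cells). The line was expanded from a single-cell clone, so that every library shares that clone, the Cas9 transgene and the guide. For 3 days all cells were kept in 50 nM LDN, an inhibitor of the BMP type I receptor kinases, either without Dox (MIB1 WT) or with 0.5 µg/ml Dox (MIB1 KO). For the last 24 hours all cells received 10 ng/ml BMP4, together with LDN (BMP-off) or with the solvent DMSO in its place (BMP-on). The 4 groups, WT BMP-off, WT BMP-on, KO BMP-off and KO BMP-on, held 3 replicates each. Dox was given to every KO library and to no WT library, so that loss of MIB1 cannot be told apart from other effects of Dox or of Cas9 cutting. Nothing in the sources used here states that replicates came from separate cultures, and the p-values therefore measure the spread between these samples, which may be technical.

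Replication starts at origins bound by the origin recognition complex (ORC). CDC6 and CDT1 then load the ring-shaped MCM2-7 helicase onto DNA, and CDC45, the GINS complex and MCM10 turn it into an active helicase when S phase begins. Polymerase α-primase lays down primers, the clamp loader replication factor C (RFC) places the sliding clamp PCNA on them, polymerases δ and ε extend them, and RPA coats the single strands in between. Ribonucleotide reductase, thymidylate synthase and thymidine kinase supply deoxynucleotides. Many of these genes are transcribed in late G1 and S phase under E2F transcription factors, so that their RNA level in a bulk sample depends on how many cells are in those phases. In bulk RNA, fewer cells that express a gene and less RNA per cell cannot be told apart.

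The promoters of the replication genes were read for the letters of an E2F site, since many members are known as E2F targets and most members changed together below. RefSeq promoter windows (GRCh38.p14, 250 bases before to 50 bases after an annotated start) were given for 44 of the 51 genes. The search covered TTTCCCGC, TTTCGCGC, TTTGCCGC and TTTGGCGC on both strands, and matches on opposite strands may overlap. A match was present in 21 of the 44 genes (47.7%), against 6.47% of the 11133 genes tested that have a window, 3.99% of all 27305 genes with a window and 3.31% of all 35116 windows. The CCAAT box, CCAAT on either strand, was in 28 of 44 (63.6%), against 42.6% of the genes tested and 34.6% of all windows. TTTGAA, the letters of a cell cycle homology region (CHR) that marks many G2/M genes, was in 1 of 44 (2.27%), against 13.4% of the genes tested and 15.2% of all windows. These are matches of letters and not sites shown to be bound. A gene without a match may still hold an E2F site in other letters or outside the window. The 160 bases before the start are printed for 4 genes with an E2F match, which were *MCM6* with 4, and *GINS2*, *GMNN* and *CDT1* with 1 each. Those of *ORC1* and *MCM10*, which had no match and were lower in KO BMP-on than in KO BMP-off cells, are printed as well. Capitals mark the matches, where runs of 8 or more letters are E2F matches, 2 of them overlapping in each run of *MCM6*, and runs of 5 letters are the CCAAT box or its reverse complement.
MCM6 (chr2:135876444-135876603, minus strand): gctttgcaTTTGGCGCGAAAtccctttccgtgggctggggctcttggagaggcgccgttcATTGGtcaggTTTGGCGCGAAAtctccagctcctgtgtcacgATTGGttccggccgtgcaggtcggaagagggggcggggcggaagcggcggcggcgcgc
GINS2 (chr16:85688955-85689114, minus strand): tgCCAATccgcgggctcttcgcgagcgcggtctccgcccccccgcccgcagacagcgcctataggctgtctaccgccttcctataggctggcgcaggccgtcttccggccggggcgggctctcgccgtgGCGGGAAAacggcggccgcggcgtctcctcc
GMNN (chr6:24775253-24775412, plus strand): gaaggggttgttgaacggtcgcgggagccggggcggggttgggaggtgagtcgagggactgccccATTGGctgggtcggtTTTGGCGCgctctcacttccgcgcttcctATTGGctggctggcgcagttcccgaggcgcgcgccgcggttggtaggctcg
CDT1 (chr16:88803629-88803788, plus strand): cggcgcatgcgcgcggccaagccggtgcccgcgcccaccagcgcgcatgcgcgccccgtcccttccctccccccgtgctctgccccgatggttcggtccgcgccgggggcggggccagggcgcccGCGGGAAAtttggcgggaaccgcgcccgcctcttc
ORC1 (chr1:52404424-52404583, minus strand): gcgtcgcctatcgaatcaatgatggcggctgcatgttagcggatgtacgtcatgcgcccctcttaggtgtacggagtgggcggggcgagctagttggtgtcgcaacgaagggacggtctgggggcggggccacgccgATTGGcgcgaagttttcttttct
MCM10 (chr10:13161398-13161557, plus strand): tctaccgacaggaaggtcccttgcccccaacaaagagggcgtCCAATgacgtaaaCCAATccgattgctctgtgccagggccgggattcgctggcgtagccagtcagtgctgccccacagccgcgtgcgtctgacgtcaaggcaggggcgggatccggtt

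**Figure D1:**
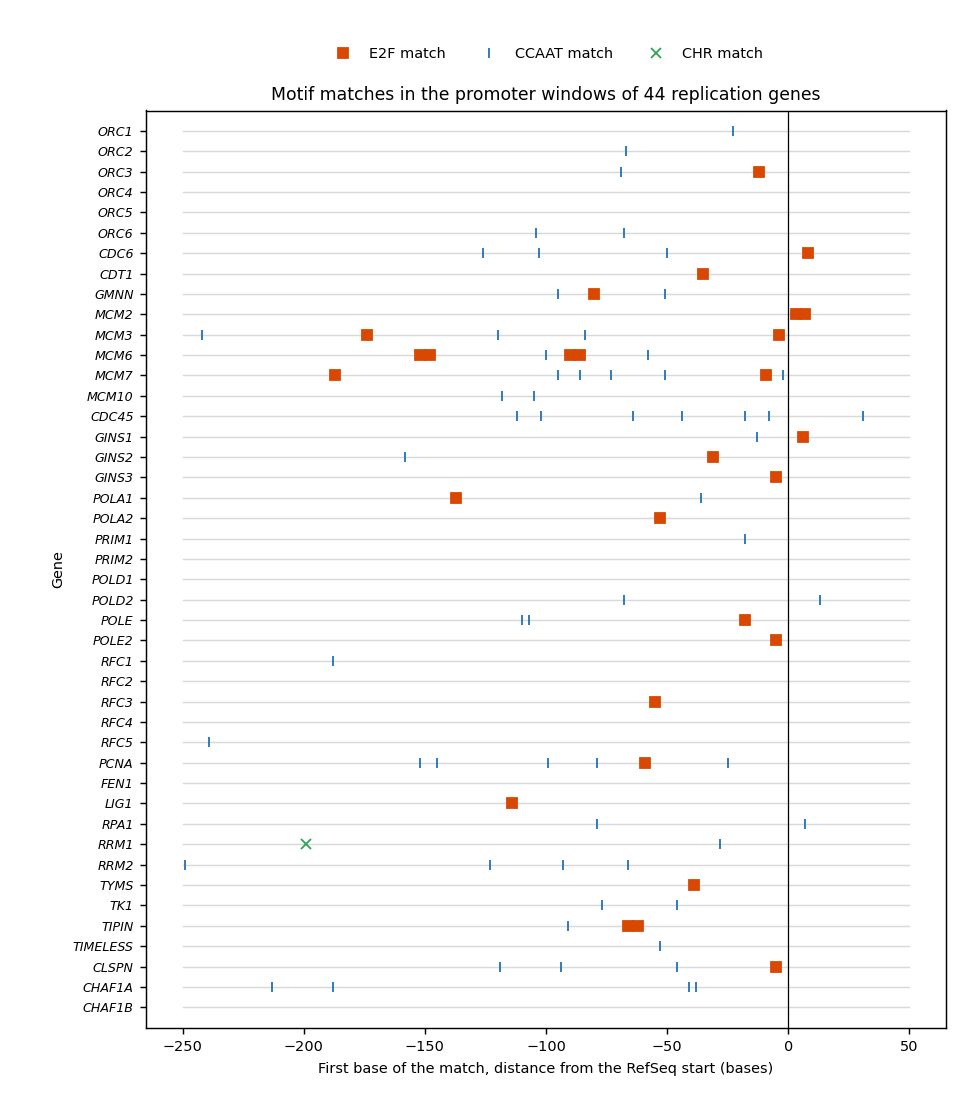
Position of each E2F, CCAAT and CHR match in the promoter windows of 44 replication genes, as the distance in bases of its first base from the RefSeq start, with 1 line per gene and the matches of all annotated starts pooled. An E2F match is present in 21 genes, a CCAAT match in 28 and a CHR match in 1.

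*MIB1* (ENSG00000101752), the targeted gene, stood at 176, 144 and 154 CPM (counts per library total after TMM scaling, which adjusts the totals for composition) in WT BMP-off, 158, 175 and 153 in WT BMP-on, 34.2, 34.4 and 32.5 in KO BMP-off and 33, 31 and 32 in KO BMP-on. Every library labelled as given Dox (KO) thus lay below every library labelled as given none (WT). Total counts per library were between 19124010 and 29498000, and the least abundant member still had 336 counts in its lowest library. The epithelial keratins *KRT8* (21.8 to 43.2 RPKM over the 12 libraries) and *KRT18* (71.1 to 85.4 RPKM) were present. Of the other epithelial markers, *EPCAM* had 100 to 263 counts, *CDH1* 129 to 228 and *KRT19* at most 2. Of the lung lineage markers, *NKX2-1*, *SFTPB* and *SFTPC* had at most 2 counts and *NAPSA* had 6 to 27. Of the markers of other cell types, *PTPRC* of white blood cells had 0 counts in every library, while *CD14* had 73 to 140, *CD3E* 1 to 9 and *CD79A* at most 3. The most abundant was the collagen gene *COL1A1* with 275 to 1071 counts, beside at most 5 for *COL1A2*, at most 3 for *DCN* and 15 to 42 for *PDGFRB*. The endothelial markers *PECAM1*, *CDH5* and *VWF* had at most 19. Libraries also differed from the mean of their own group by an amount that varied with the GC content of a gene. The Spearman rho of this difference with GC content ran from -0.603 for KO BMP-off replicate 2 to 0.586 for KO BMP-off replicate 3. Because the group mean is taken out, the values of a group depend on each other, and a trend shared by a group is not seen. Results on GC-rich members are given with these trends in view.

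By level, the machinery spanned a wide range within a library. On the RPKM scale, which takes account of gene length, the highest levels in WT BMP-off cells were those of *PCNA* (239 ± 6.96 RPKM, mean ± SD, n = 3), *MCM7* (182 ± 1.3) and *MCM6* (135 ± 5.26), and the lowest those of *CDT1* (7.54 ± 0.776) and *GINS4* (7.42 ± 0.421). *MCM6* and *TYMS* (130 ± 5.54) were neighbours that overlapped within their SD, as did *CDT1* and *GINS4* at the other end. The 6 subunits of MCM2-7 lay between 69.8 and 182 RPKM, and the 6 ORC subunits between 11.5 (*ORC4*) and 42.1 (*ORC1*). Of the 4 GINS subunits, which are present in equal copies in the complex, *GINS1* was at 44.8 ± 1.85 RPKM and *GINS4* at 7.42 ± 0.421 RPKM.

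Most of the machinery was lower in BMP-on than in BMP-off in MIB1 KO cells. The log2 fold change was negative for 48 of the 51 members in KO cells and for 46 in WT cells. In WT cells the falls were smaller by the median and fewer were called, and no member was called higher in any comparison. In KO cells, 41 of 51 members were called lower in BMP-on than in BMP-off by edgeR's quasi-likelihood test at an adjusted p of at most 0.05, against 10.9% of all genes tested called lower and 11.1% called higher. The median log2 fold change of the 51 members was -0.345, that is 78.7% of the level in KO BMP-off, beside 0.006 for all genes tested. In WT cells 9 members were called lower, against 2.01% of all genes lower and 1.91% higher, with a median of -0.134 or 91.1% of the level. The 9 were *MCM6*, *CDC45*, *GINS1*, *POLA2*, *PRIM1*, *RFC5*, *PCNA*, *RPA1* and *TYMS*, and all 9 were also called in KO cells. The WT count rested on single libraries, being 2 to 5 without any 1 of the 6 WT libraries and 16 without KO BMP-off replicate 2. None of the 51 changed by as much as 1 on the log2 scale in any comparison, the fold threshold used in the study. A count of 0 members called higher was also found by DESeq2 and limma-voom in both responses, and the only member higher at an unadjusted p under 0.05 was *POLD2* in KO cells. edgeR called *POLD2* without the filter on low counts and without KO BMP-off replicate 3.

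With BMP-on, the machinery stood lower in KO cells than in WT cells. All 51 log2 fold changes of KO against WT were negative, with a median of -0.230 (85.3% of the WT level, beside 0.002 on the log2 scale for all genes), and 27 members were called lower, against 2.34% of all genes lower and 1.32% higher. Without WT BMP-on replicate 1 or KO BMP-on replicate 3 the count was 17. With GC correction it was 41. This comparison shares the KO BMP-on libraries with the BMP response in KO cells, in which all 27 were also called. With BMP-off, KO and WT cells showed no such shift. edgeR called 0 members there, with 1 at an unadjusted p under 0.05 (*TIMELESS*), DESeq2 and limma-voom also called 0, and the median was 0.002, against 0.0349% of all genes called lower and 0.00582% higher.

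Whether the fall in KO cells exceeded that in WT cells was tested as an interaction. It was negative for 48 of 51 members, with a median of -0.227 on the log2 scale beside 0.012 for all genes, yet edgeR called 0 members, against 0.0524% of all genes lower and 0.0407% higher. At an unadjusted p under 0.05 there were 34 members, all of them lower. limma-voom likewise called 0, whereas DESeq2 called 14 lower (0.64% of all genes), edgeR without the filter on low counts 13 (0.534%) and edgeR with a correction for GC content 23 (1.09% of all genes). The count was 10 without WT BMP-off replicate 1 (1.1%) and 14 without KO BMP-off replicate 3 (0.766%). The smallest adjusted p by edgeR was that of *MCM10* and *RRM1*, at 0.0722 each. The call of a different response therefore depended on the tool and on single libraries, while the sign did not depend on either for the median.

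The groups fell in the same order for most members. Averaged over the 51 members, the log2 ratio to the mean of WT BMP-off was between -0.031 and 0.017 in the WT BMP-off libraries and between -0.024 and 0.015 in KO BMP-off. It was between -0.131 and -0.082 in WT BMP-on and between -0.332 and -0.319 in KO BMP-on, so that the 4 groups fell into 3 levels without overlap. For 47 members the lowest group mean was that of KO BMP-on, and for 41 the means ran from the BMP-off groups through WT BMP-on to KO BMP-on. All 3 KO BMP-on libraries lay below the 9 others for 37 of 51 members, against 7.39% of all genes tested. The 3 BMP-on libraries lay wholly below the 3 BMP-off libraries for 40 members in KO cells (17.8% of all genes) and for 28 in WT cells (12.7%), and KO lay wholly below WT for 43 members with BMP-on (12.2%) and 2 with BMP-off (5.96%).

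**Figure D2:**
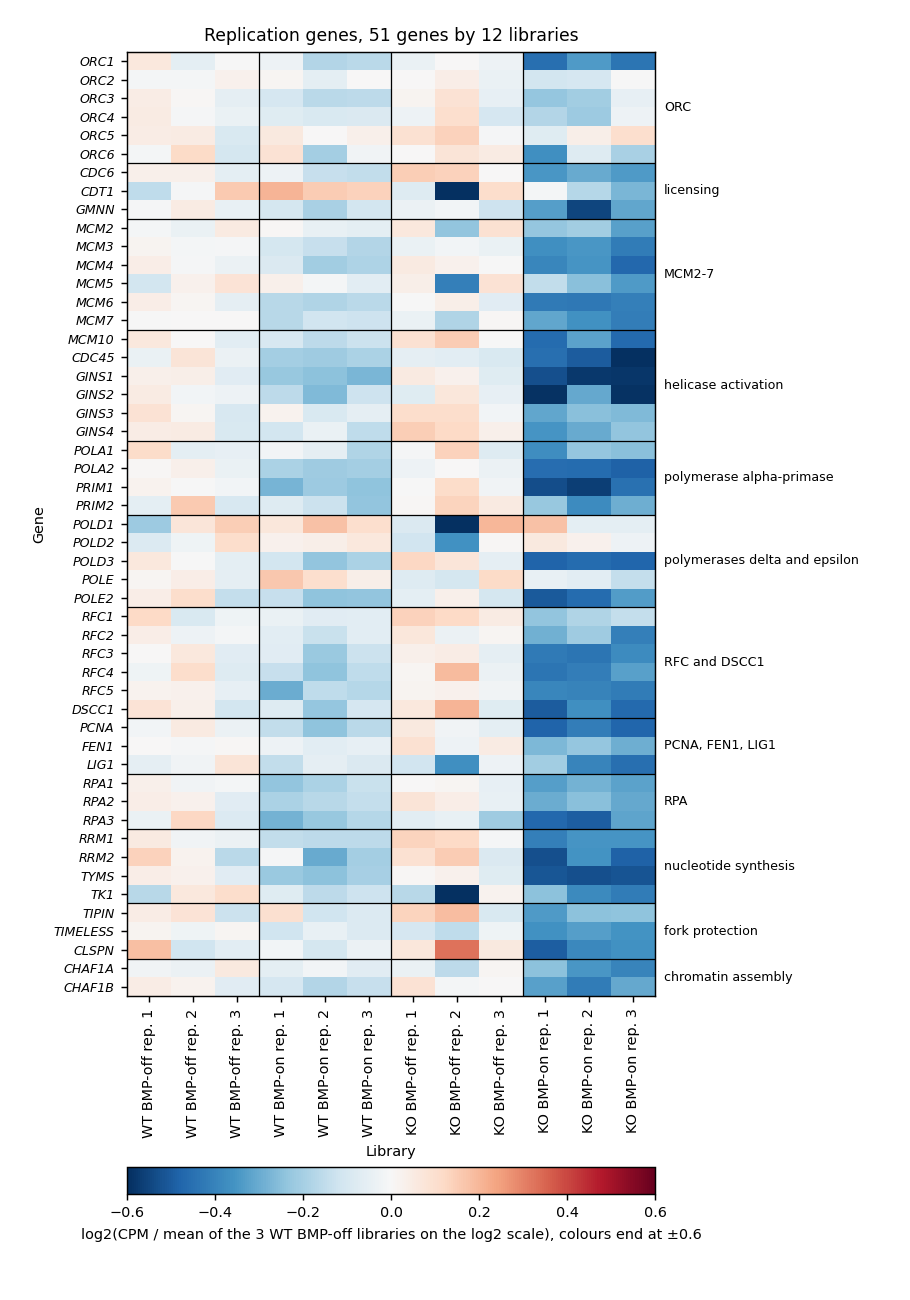
Level of each of the 51 replication genes (rows, grouped by sub-complex) in each of the 12 libraries (columns), as the log2 ratio of CPM to the mean of the 3 WT BMP-off libraries, with blue for lower and red for higher levels. The 3 KO BMP-on columns are the lowest for most rows, and KO BMP-off replicate 2 stands out by a few dark cells such as *CDT1*, *POLD1* and *TK1*.

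At the origin, the subunits of ORC parted. In KO cells 3 of 6 were called lower with BMP-on, and the median log2 fold change was -0.156. *ORC1* was at 132, 122 and 126 CPM in the WT BMP-off libraries, 124, 112 and 113 in WT BMP-on, 123, 127 and 124 in KO BMP-off and 92.6, 100 and 93.6 in KO BMP-on. *ORC1*, the largest subunit and the one that rises and falls with the cell cycle, was thus lower in every KO BMP-on library than in any other (KO response log2 fold change -0.39, SE 0.05, adjusted p = 6.6e-05, KO against WT with BMP-on -0.29, SE 0.05, adjusted p = 0.00418). *ORC5* was at 49.5, 49.7 and 45 CPM in the WT BMP-off libraries, 50.1, 48.2 and 49 in WT BMP-on, 51.1, 52.9 and 47.7 in KO BMP-off and 45.6, 49.3 and 51.4 in KO BMP-on. The 4 groups of *ORC5*, a core subunit, overlapped, and it was called in no comparison (KO response -0.05, SE 0.06, adjusted p = 0.581). Across the core subunits *ORC2* to *ORC5* the median in the KO response was -0.102 with 1 of 4 called, *ORC3* at -0.18 with an adjusted p of 0.0347, which was no longer called after GC correction. *ORC6*, which binds the core ring more loosely, was lower at -0.25 (adjusted p = 0.0367). Between KO and WT with BMP-on, *ORC1* was the only subunit of ORC called.

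Among the licensing factors, *CDC6* and *GMNN* fell in KO cells and *CDT1* was not called. *CDC6* was at 207, 207 and 194 CPM in the WT BMP-off libraries, 199, 184 and 183 in WT BMP-on, 224, 223 and 203 in KO BMP-off and 159, 165 and 160 in KO BMP-on. *CDC6*, which loads MCM2-7 together with ORC and CDT1, fell to 74.4% of the BMP-off level in KO cells (log2 fold change -0.43, SE 0.05, adjusted p = 1.53e-05), and in WT cells it stood at 93% without being called (adjusted p = 0.337). *CDT1* was at 20.9, 23.2 and 25.9 CPM in the WT BMP-off libraries, 26.8, 25.9 and 25.6 in WT BMP-on, 22, 13.5 and 25 in KO BMP-off and 23, 20.6 and 19.2 in KO BMP-on. KO BMP-off replicate 2 was far below the other 2 of its group for *CDT1*, and the KO response had an SE of 0.18 around a log2 fold change of 0.06. After GC correction that value was -0.31 with an adjusted p of 0.00264. *GMNN* encodes geminin, the inhibitor of CDT1, and its mean went from 77.8 ± 3.11 to 61.7 ± 5.52 CPM in KO cells (log2 fold change -0.33, SE 0.06, adjusted p = 0.00107). Against WT BMP-on cells, too, KO BMP-on cells had less of it (-0.26, adjusted p = 0.0281).

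Of the MCM2-7 helicase, 5 of 6 subunits were called lower in KO cells (median -0.320, from -0.431 to -0.164), 1 of 6 in WT cells (median -0.137, from -0.170 to -0.016) and 4 of 6 between KO and WT with BMP-on (median -0.235). In WT cells 4 of 6 were lower at an unadjusted p under 0.05 by edgeR. DESeq2 called 3 of 6 lower there, and edgeR with GC correction 4 of 6. *MCM6* was at 496, 486 and 464 CPM in the WT BMP-off libraries, 430, 425 and 430 in WT BMP-on, 480, 494 and 460 in KO BMP-off and 359, 358 and 362 in KO BMP-on. *MCM6* (ENSG00000076003, chr2:135839626-135876443), whose promoter stretch above holds 4 E2F matches, separated all 3 levels without overlap, and it was called in the WT response (-0.17, adjusted p = 0.0212), in the KO response (-0.41, 1.93e-06) and in KO against WT with BMP-on (-0.25, 0.00148). *MCM5* was at 218, 240 and 249 CPM in the WT BMP-off libraries, 240, 234 and 225 in WT BMP-on, 241, 177 and 250 in KO BMP-off and 212, 198 and 186 in KO BMP-on. *MCM5*, with a transcript of 57% GC, was again low in KO BMP-off replicate 2, and was not called in KO cells (log2 fold change -0.16, SE 0.11, adjusted p = 0.318). With GC correction it was at -0.30 with an adjusted p of 0.000707. The 6 log2 fold changes of KO against WT with BMP-on lay between -0.252 and -0.224, a span smaller than the SE of any of them (the smallest was 0.04). The subunits of the ring thus differed from each other by less than their error in that comparison.

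The factors that activate the helicase had a median log2 fold change of -0.466 in KO cells, where all 6 were called, and 5 of 6 were called between KO and WT with BMP-on (median -0.301). *GINS1* was at 142, 142 and 133 CPM in the WT BMP-off libraries, 119, 117 and 115 in WT BMP-on, 144, 141 and 132 in KO BMP-off and 96.6, 93.1 and 92.6 in KO BMP-on. *GINS1*, a GINS subunit, fell to 67.6% of the BMP-off level in KO cells (log2 fold change -0.56, SE 0.05, adjusted p = 5.69e-07) and to 84% in WT cells (log2 fold change -0.25, SE 0.05, adjusted p = 0.00483), with no overlap between groups in either. *GINS4* was at 39.9, 40 and 36.2 CPM in the WT BMP-off libraries, 35.9, 37.6 and 34.7 in WT BMP-on, 42.8, 42 and 39.5 in KO BMP-off and 30.3, 31.4 and 32.9 in KO BMP-on. Its partner subunit *GINS4* fell in KO cells (log2 fold change -0.40, SE 0.06, adjusted p = 0.000235), and the difference between KO and WT with BMP-on was not called (-0.20, adjusted p = 0.115). *GINS2* and *GINS3* completed the complex with KO responses of -0.48 and -0.34. *CDC45* went from 72.1 ± 1.02 to 52.7 ± 2.96 CPM in KO cells (log2 fold change -0.45, SE 0.05, adjusted p = 1.49e-05) and was called in WT cells too (-0.20, adjusted p = 0.0385). *MCM10*, which has no E2F match in its window, went from 192 ± 10.2 to 136 ± 7.9 CPM (log2 fold change -0.50, SE 0.05, adjusted p = 5.46e-06).

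**Figure D3:**
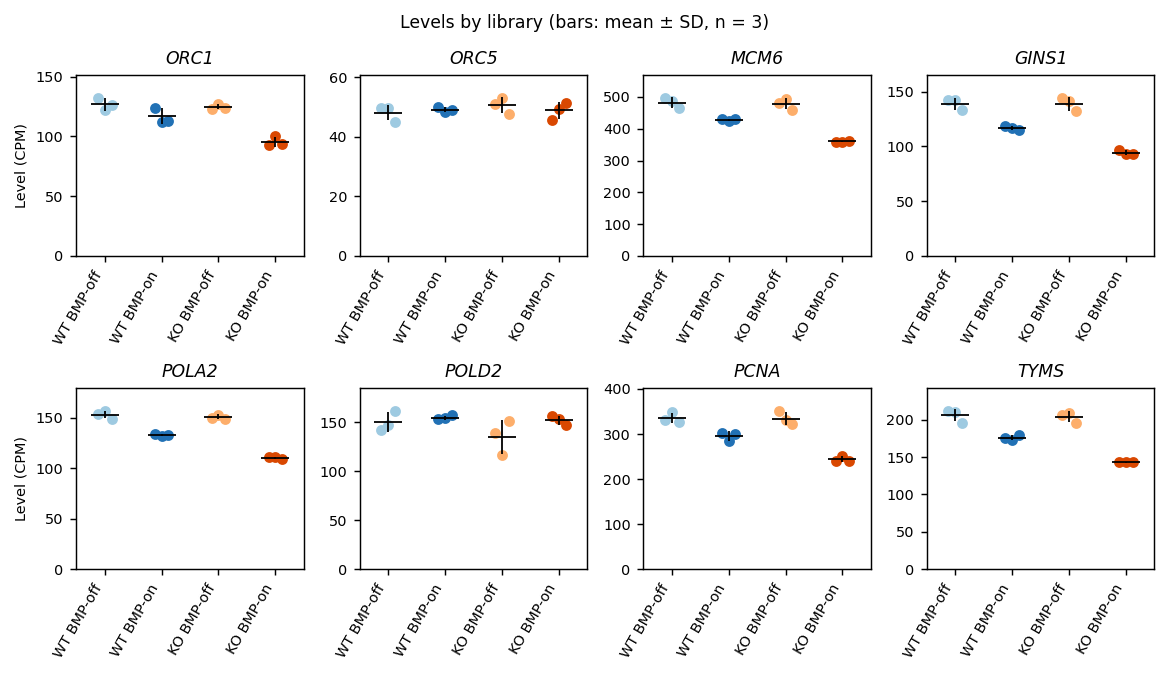
Level in CPM of 8 replication genes in each library, with points for the 3 replicates of each group and bars for mean ± SD. *ORC1*, *MCM6*, *GINS1*, *POLA2*, *PCNA* and *TYMS* step down in their group means from the BMP-off groups to WT BMP-on and to KO BMP-on, while the groups of *ORC5* and *POLD2* overlap.

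All 4 subunits of polymerase α-primase were called in KO cells (median -0.404). *POLA2* was at 154, 156 and 149 CPM in the WT BMP-off libraries, 134, 132 and 133 in WT BMP-on, 150, 153 and 149 in KO BMP-off and 111, 111 and 109 in KO BMP-on. *POLA2*, the accessory subunit of polymerase α, varied by at most 3.82 CPM (SD) within any group, and its 3 levels did not overlap (KO response -0.45, SE 0.04, adjusted p = 9.61e-07, KO against WT with BMP-on -0.27, SE 0.04, adjusted p = 0.00118). *PRIM1* was at 80.6, 79.4 and 78.7 CPM in the WT BMP-off libraries, 65.6, 68.4 and 67.2 in WT BMP-on, 79.4, 85.8 and 78.4 in KO BMP-off and 55, 53.8 and 58.3 in KO BMP-on. *PRIM1*, the catalytic subunit of primase, fell in WT cells by 0.25 on the log2 scale (adjusted p = 0.00872) and in KO cells by 0.54 (adjusted p = 1.57e-06). *PRIM2* was at 27.9, 32.3 and 27.2 CPM in the WT BMP-off libraries, 27.5, 26.5 and 24.7 in WT BMP-on, 29.2, 31.9 and 30.2 in KO BMP-off and 24.8, 22.4 and 23.7 in KO BMP-on. Its partner *PRIM2* fell in KO cells (-0.36, adjusted p = 0.00296) and was not called between KO and WT with BMP-on (-0.15, adjusted p = 0.425). *POLA1*, the catalytic subunit, was likewise called in the KO response alone (-0.31, adjusted p = 0.0048). Reads of *POLA2* and *PRIM1* may include those of another gene on the same strand, which covers 16.8% and 10.9% of their exon bases.

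The leading and lagging strand polymerases moved unequally, and 2 of 5 members were called in KO cells (median -0.061). *POLD3* was at 79.1, 75.7 and 72.6 CPM in the WT BMP-off libraries, 70.3, 64.2 and 66.5 in WT BMP-on, 82.5, 79.6 and 73.1 in KO BMP-off and 54.3, 55 and 54.5 in KO BMP-on. *POLD3*, an accessory subunit of polymerase δ, was lower in all KO BMP-on libraries (log2 fold change -0.52, SE 0.06, adjusted p = 6.02e-06) and lower than in WT cells with BMP-on (-0.29, adjusted p = 0.00582). *POLD2* was at 142, 147 and 161 CPM in the WT BMP-off libraries, 153, 154 and 157 in WT BMP-on, 139, 117 and 151 in KO BMP-off and 156, 153 and 147 in KO BMP-on. *POLD2*, the small subunit of the same enzyme, had a KO response of the opposite sign that did not pass (log2 fold change 0.17, SE 0.07, adjusted p = 0.123). After GC correction it was -0.03 with an adjusted p of 0.624. *POLD1*, the catalytic subunit, was at 87.8 ± 25.5 CPM in KO BMP-off and 98.5 ± 9.46 in KO BMP-on, a difference within the spread of the former group, and its value of 0.17 became -0.18 with an adjusted p of 0.0144 after GC correction. For polymerase ε, *POLE2* fell (-0.39, adjusted p = 0.00121) and the catalytic *POLE* did not pass (-0.06, 0.491). After GC correction it was -0.16 with an adjusted p of 0.0098.

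RFC and DSCC1 were called for all 6 genes in KO cells (median -0.416) and for 4 of 6 between KO and WT with BMP-on (median -0.216). *RFC3* was at 142, 148 and 135 CPM in the WT BMP-off libraries, 135, 122 and 130 in WT BMP-on, 145, 146 and 137 in KO BMP-off and 106, 105 and 109 in KO BMP-on. *RFC3*, a small subunit of the clamp loader, fell to 74.7% of the BMP-off level in KO cells (log2 fold change -0.42, SE 0.05, adjusted p = 2.4e-05). *RFC1* was at 163, 140 and 147 CPM in the WT BMP-off libraries, 146, 143 and 143 in WT BMP-on, 165, 163 and 155 in KO BMP-off and 127, 132 and 136 in KO BMP-on. *RFC1*, the large subunit, fell in KO cells (-0.29, adjusted p = 0.000988), and its difference from WT with BMP-on was not called (-0.13, adjusted p = 0.271). *RFC5* was the subunit called in WT cells as well (-0.20, adjusted p = 0.0385), a call kept in 7 of 20 alternatives. *DSCC1*, part of a second clamp loader that serves sister chromatid cohesion, went from 71.7 ± 6.91 to 50.3 ± 2.43 CPM (log2 fold change -0.51, SE 0.07, adjusted p = 9.92e-05).

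PCNA, the clamp itself, had the highest level of all members on the RPKM scale in WT BMP-off and fell with its loader. *PCNA* was at 332, 349 and 327 CPM in the WT BMP-off libraries, 303, 284 and 301 in WT BMP-on, 350, 331 and 323 in KO BMP-off and 240, 252 and 241 in KO BMP-on. *PCNA* was called in the WT response (-0.18, adjusted p = 0.0292), in the KO response (-0.45, 2.62e-06) and in KO against WT with BMP-on (-0.28, 0.00193), and the 3 levels did not overlap. *LIG1* was at 113, 115 and 123 CPM in the WT BMP-off libraries, 105, 112 and 110 in WT BMP-on, 108, 90.3 and 115 in KO BMP-off and 101, 88.8 and 85.3 in KO BMP-on. *LIG1*, the ligase that seals Okazaki fragments, varied within KO BMP-off as the other GC-rich members did, and its KO response missed the threshold (log2 fold change -0.18, SE 0.08, adjusted p = 0.114). After GC correction it was -0.31 with an adjusted p of 9.66e-06. *FEN1*, the nuclease that trims the flaps of these fragments, went from 159 ± 6.9 to 129 ± 2.72 CPM (log2 fold change -0.30, SE 0.04, adjusted p = 9.86e-05). *PCNA* has 3 annotated pseudogenes named after it, among 12 members with at least 1, and how reads shared with such copies were counted is not given in the sources used here.

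RPA fell in KO cells by about as much in each of its 3 subunits, all of them called (median -0.311, from -0.319 to -0.299). Between KO and WT with BMP-on edgeR called 0 of 3 (median -0.125, 3 of 3 at an unadjusted p under 0.05), and 2 of 3 with GC correction. *RPA1* was at 247, 238 and 239 CPM in the WT BMP-off libraries, 205, 211 and 220 in WT BMP-on, 242, 243 and 233 in KO BMP-off and 192, 198 and 193 in KO BMP-on. *RPA1*, the large subunit, fell in WT cells (-0.19, adjusted p = 0.0153) and in KO cells (-0.30, adjusted p = 7.72e-05), and KO BMP-on lay wholly below WT BMP-on without passing the test (log2 fold change -0.12, SE 0.04, adjusted p = 0.135). *RPA2* was at 153, 151 and 142 CPM in the WT BMP-off libraries, 130, 132 and 134 in WT BMP-on, 156, 153 and 144 in KO BMP-off and 121, 125 and 120 in KO BMP-on. *RPA2* had nearly the same values (KO response -0.31, adjusted p = 0.00015), and its WT response was just above the threshold (-0.17, adjusted p = 0.0553).

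Of the enzymes that make deoxynucleotides, 3 of 4 were called in KO cells (median -0.481). *TYMS* was at 211, 210 and 196 CPM in the WT BMP-off libraries, 176, 173 and 179 in WT BMP-on, 206, 209 and 195 in KO BMP-off and 144, 143 and 144 in KO BMP-on. *TYMS*, thymidylate synthase, was within 0.632 CPM (SD) over the KO BMP-on libraries and fell to 70.4% of the KO BMP-off level (log2 fold change -0.51, SE 0.04, adjusted p = 6.39e-07). It had the smallest adjusted p of all members in KO against WT with BMP-on (log2 fold change -0.30, SE 0.04, adjusted p = 0.00104), and it was lower in WT BMP-on than in WT BMP-off too (-0.22, adjusted p = 0.00606). Of its exon bases, 39.9% are shared with the gene *ENOSF1* on the opposite strand, and whether strand was used in counting is not given in the sources used here. The same limit holds for *MCM2* and *GINS4*, which share 23.6% and 21% of their exon bases with a noncoding gene on the opposite strand. In all, 24 members share exon bases with another gene, 20 of them on the opposite and 6 on the same strand. *TK1* was at 134, 157 and 161 CPM in the WT BMP-off libraries, 143, 135 and 138 in WT BMP-on, 134, 97.9 and 152 in KO BMP-off and 127, 115 and 112 in KO BMP-on. *TK1*, thymidine kinase of the salvage pathway, was spread widely in KO BMP-off and was not called (log2 fold change -0.12, SE 0.13, adjusted p = 0.586). After GC correction it was -0.44 with an adjusted p of 1.27e-08. *RRM1* and *RRM2*, the subunits of ribonucleotide reductase, had KO responses of -0.46 (adjusted p = 2.15e-06) and -0.51 (adjusted p = 0.00131), and of this pair *RRM1* was called between KO and WT with BMP-on (-0.22, 0.00913).

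The fork protection genes *TIMELESS*, *TIPIN* and *CLSPN*, which couple the helicase to the polymerases and to the checkpoint, were all called in KO cells (median -0.359), and 0 of 3 in WT cells by edgeR (median -0.061, none at an unadjusted p under 0.05, and 0 by DESeq2 and limma-voom as well). *TIMELESS* was at 245, 238 and 244 CPM in the WT BMP-off libraries, 223, 235 and 229 in WT BMP-on, 226, 218 and 238 in KO BMP-off and 189, 192 and 189 in KO BMP-on. *TIMELESS* stood lower in KO BMP-on than in WT BMP-on cells (log2 fold change -0.27, SE 0.04, adjusted p = 0.00139) and fell in KO cells (-0.26, adjusted p = 0.00036). *TIPIN* was at 33, 33.8 and 29.2 CPM in the WT BMP-off libraries, 34.2, 29.4 and 30.2 in WT BMP-on, 35, 36.3 and 30 in KO BMP-off and 25.3, 26.9 and 27 in KO BMP-on. *TIPIN*, its partner, fell in KO cells (log2 fold change -0.36, SE 0.08, adjusted p = 0.00566) and was not called between KO and WT (-0.24, adjusted p = 0.153). *CLSPN*, which encodes the checkpoint mediator claspin, went from 76.9 ± 8.26 to 51.8 ± 2.46 CPM, the most negative log2 fold change of any member in the KO response (log2 fold change -0.57, SE 0.08, adjusted p = 0.000146).

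Chromatin assembly factor 1 places new histones behind the fork, and both of its subunits measured here were called in KO cells and between KO and WT with BMP-on. *CHAF1A* was at 88.7, 87.9 and 93.7 CPM in the WT BMP-off libraries, 86.4, 88.9 and 85.8 in WT BMP-on, 87.5, 80.7 and 90.7 in KO BMP-off and 75.9, 70.7 and 68.4 in KO BMP-on. *CHAF1A* fell in KO cells (log2 fold change -0.27, SE 0.06, adjusted p = 0.00259) and stood below WT with BMP-on (-0.28, adjusted p = 0.00728). *CHAF1B* was at 54.6, 53.7 and 50.4 CPM in the WT BMP-off libraries, 49.3, 46.9 and 48 in WT BMP-on, 56.1, 52.5 and 52.9 in KO BMP-off and 42.2, 39.5 and 42.8 in KO BMP-on. *CHAF1B* fell in KO cells (log2 fold change -0.37, SE 0.06, adjusted p = 0.00014), and its difference from WT with BMP-on was just past the threshold (-0.21, adjusted p = 0.0466), a call kept in 6 of 20 alternatives.

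**Figure D4:**
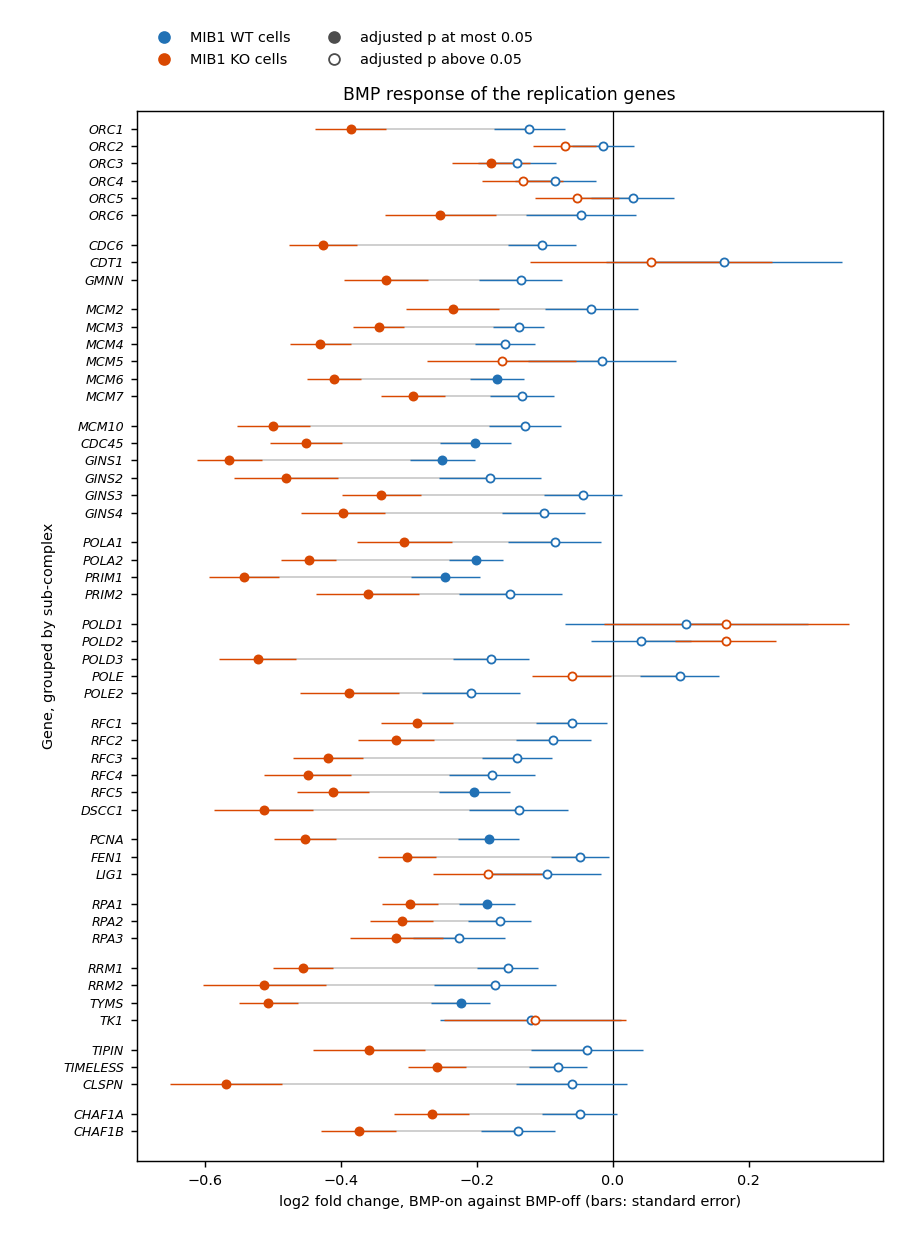
Log2 fold change of BMP-on against BMP-off for each of the 51 replication genes, grouped by sub-complex, in MIB1 WT cells (blue) and MIB1 KO cells (orange), with bars for the standard error and filled points where the adjusted p is at most 0.05. The orange point lies to the left of the blue one for 48 genes, 41 orange and 9 blue points are filled, and the orange points of *CDT1*, *POLD1* and *POLD2* are the ones above 0.

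Set side by side, the medians of the sub-complexes in the KO response ran from -0.481 for nucleotide synthesis and -0.466 for helicase activation through -0.416 for RFC and DSCC1, -0.404 for polymerase α-primase, -0.359 for fork protection and -0.334 for licensing. They went on with -0.321 for chromatin assembly, -0.320 for MCM2-7, -0.311 for RPA and -0.303 for PCNA with FEN1 and LIG1, and ended with -0.156 for ORC and -0.061 for polymerases δ and ε. With 2 to 6 genes in each, differences between these medians were not tested. With GC correction the last pair changed places, at -0.061 for ORC with 2 of 6 called and -0.176 for polymerases δ and ε with 4 of 5 called. The middle of the order changed as well. Chromatin assembly was then at -0.391, MCM2-7 at -0.373, RFC and DSCC1 at -0.350 and fork protection at -0.281. Nucleotide synthesis (-0.449) and helicase activation (-0.445) stayed at the top. Without that correction, the medians of KO against WT with BMP-on ran from -0.301 for helicase activation to -0.125 for RPA and -0.055 for ORC.

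The members that were not called in KO cells were *ORC2*, *ORC4*, *ORC5*, *CDT1*, *MCM5*, *POLD1*, *POLD2*, *POLE*, *LIG1* and *TK1*. Their transcripts had a median GC content of 56.8%, against 45.4% for the 41 that were called. Over the 51 members, GC content and the log2 fold change of the KO response had a Spearman rho of 0.38 and a Pearson r of 0.54, a description across genes that share their libraries. With the GC correction these were -0.14 and -0.12. Of the 10 members with at least 55% GC, 3 were called without and 9 with the correction, and of the 41 below it 38 and 37. With it, the members left uncalled were *ORC2*, *ORC3*, *ORC4*, *ORC5* and *POLD2*. The counts of members called lower became 46 in the KO response (12.5% of all genes), 19 in the WT response (4.86%) and 41 in KO against WT with BMP-on (4.4%). The median of the core subunits *ORC2* to *ORC5* went from -0.102 with 1 called to -0.010 with 0 called, and 1 of the 4 had an unadjusted p under 0.05 with the correction. KO BMP-off replicate 2 departed farthest from the mean of its group in its trend with GC content. Without it, 42, 16 and 33 members were called lower in the KO response, the WT response and KO against WT with BMP-on.

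**Figure D5:**
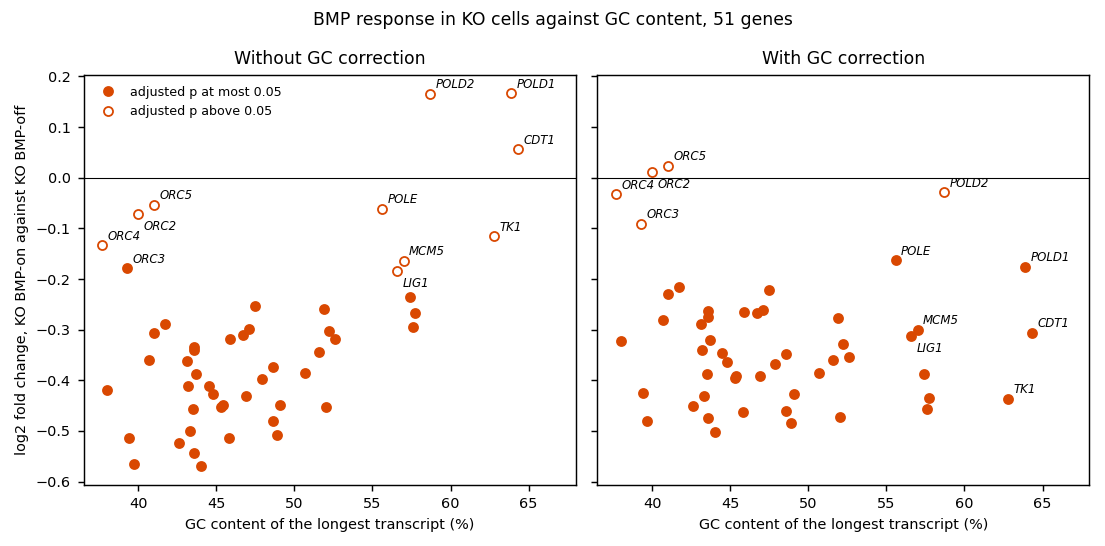
Log2 fold change of KO BMP-on against KO BMP-off for the 51 replication genes against the GC content of the longest transcript in percent, without (left) and with (right) a GC correction, filled where the adjusted p is at most 0.05 and with names for the genes not called in at least 1 of the panels. On the left the unfilled points lie at the lowest and highest GC contents, and on the right the GC-rich genes other than *POLD2* have joined the rest below 0 while *ORC2* to *ORC5* lie near it.

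Genes with and without an E2F match, as shown in the promoter stretches above, had medians close to each other within the machinery. In the KO response the median log2 fold change was -0.359 for the 21 members with a match, of which 18 were called, and -0.303 for the 23 without, of which 17 were called. For KO against WT with BMP-on the values were -0.252 with 13 called and -0.216 with 11 called. Over all genes tested that have a window, those with a match had a median of -0.047 in the KO response and 23.1% were called lower, against 0.011 and 12.5% for those without. For KO against WT with BMP-on the median was -0.028 with 7.92% called lower, against 0.004 and 2.6%. The median of the members without a match was thus further from 0 than that of all genes tested that have one. *ORC1*, *MCM10*, *CDC45* and *PRIM1* were among these members. Only the letters searched within the windows counted as a match, so that the members without one cannot be taken as lacking E2F sites. The differences between these classes were not tested.

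The calls made on the machinery extended in part to 40 other genes of replication, named from general knowledge, though with earlier results of these data known. In KO cells 23 of them were called lower (10.9% of all genes) and 1 higher (11.1% of all genes), with a median of -0.203. In WT cells 2 were called lower (2.01% of all genes) and 0 higher, a count of 2 that became 5 with DESeq2 (2.33%) and 10 with GC correction (4.86%). Between KO and WT with BMP-on 11 were called lower (2.34%) and 0 higher, and with GC correction 17 lower (4.4%) and 1 higher. With BMP-off 0 were called between KO and WT by edgeR, with 2 at an unadjusted p under 0.05. *TOP2A* was at 1205, 1067 and 1069 CPM in the WT BMP-off libraries, 911, 937 and 918 in WT BMP-on, 1153, 1170 and 1059 in KO BMP-off and 701, 695 and 731 in KO BMP-on. *TOP2A*, the topoisomerase that untangles replicated DNA, was lower in every BMP-on than in every BMP-off library (KO response -0.67, SE 0.05, adjusted p = 1.81e-07). By edgeR its interaction was called (-0.40, SE 0.07, adjusted p = 0.0484) and those of the 39 other genes were not, but the call of *TOP2A* held in 6 of 19 alternatives. With DESeq2 6 of the 40 had a called interaction (0.64% of all genes), and with GC correction 11 (1.09%), all of them lower. *ATAD5* was at 34.4, 31.2 and 30 CPM in the WT BMP-off libraries, 31.4, 29.4 and 27.6 in WT BMP-on, 32.7, 37.4 and 32 in KO BMP-off and 21.5, 23.1 and 22.1 in KO BMP-on. *ATAD5*, which unloads PCNA, fell in KO cells (log2 fold change -0.61, SE 0.08, adjusted p = 2.99e-05) and stood below WT with BMP-on (-0.41, adjusted p = 0.00573). *TICRR*, needed to load CDC45 onto origins, had a KO response of -0.61 (adjusted p = 4.82e-06). *DUT* was at 142, 152 and 133 CPM in the WT BMP-off libraries, 131, 126 and 130 in WT BMP-on, 142, 141 and 133 in KO BMP-off and 98, 90.6 and 100 in KO BMP-on. *DUT*, whose product removes dUTP and makes the precursor for thymidylate synthase, had the most negative log2 fold change of the 40 in KO against WT with BMP-on (-0.42, SE 0.06, adjusted p = 0.000477). *POLD4* was at 6.11, 6.61 and 7.14 CPM in the WT BMP-off libraries, 7.42, 6.57 and 8.08 in WT BMP-on, 6.25, 4.34 and 6.86 in KO BMP-off and 10.5, 9.92 and 8.58 in KO BMP-on. *POLD4*, the smallest subunit of polymerase δ, rose in KO cells (log2 fold change 0.73, SE 0.14, adjusted p = 0.00162). Its transcript has 58.8% GC, and it had 108 to 275 counts per library. After GC correction its KO response was 0.54 with an adjusted p of 0.000512.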

How the data were processed

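RNA-seq of 12 libraries was analysed. After discarding ribosomal reads, the authors used GSNAP for alignment (GRCh38) and HTSeqGenie to count exonic reads per RefSeq gene. The deposited count table holds raw counts for 58302 Ensembl genes, and a second deposited table gives RPKM on a scale the authors made comparable across libraries, which served here for levels between genes and had no test. The protocols list a low-input and a stranded library kit without saying which was used. Counts were scaled by TMM, filtered with edgeR's default (17188 genes) and tested with edgeR 4.0.16 in R 4.3.3 with a robust quasi-likelihood model of all 12 libraries together. Within each of 5 comparisons p-values were adjusted over all genes tested (Benjamini-Hochberg), and calls needed an adjusted p no higher than 0.05, without a fold threshold. The SE of a log2 fold change was derived from the F statistic. CPM values are TMM-scaled. For pairs of libraries of a group, the variance between replicates was 2.98 to 17.2 times that of counting alone, as a mean over all genes tested. How far depth limited genes with few counts was not examined. The alternatives were RLE size factors, upper-quartile scaling, DESeq2 1.42.0, limma-voom 3.58.1 with quantile normalization, no filter, a fit restricted to the groups compared, a replicate block, a GC correction (per library, a loess curve with a span of 0.4 on the GC content of the longest GENCODE transcript, known for 99.4% of genes tested) and each library left out in turn. The procedure was also run on simulated counts with known changes, drawn at a common dispersion and without GC trends. That run therefore does not show how calls behave under the GC trends of these libraries. The members, lists, tests and the GC correction were chosen with earlier results of these data known. All members could be named. Values in every library were given for the members with the smallest and the largest adjusted p of each sub-complex in KO against WT with BMP-on and for up to 5 members with the smallest adjusted p in each comparison, with up to 3 other replication genes per direction with the largest called change in KO against WT with BMP-on and in the KO response. *CDC45*, *ORC3* and others were added as further members of their complexes.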

Additional observations from a re-analysis of the deposited data

How the results depend on the processing

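Across 20 alternatives the medians of the 51 members kept their sign in both BMP responses and in KO against WT with BMP-on, as they did in the interaction across its 19 (a fit of only the groups compared is not defined for it), and the 41 members called lower in the KO response stayed within 1.5 times that count. In the WT response 9 members were called lower, 14 with only the groups compared, 19 with GC correction and 2 to 16 when a library was left out, with 2 without WT BMP-on replicate 2 and 16 without KO BMP-off replicate 2. In KO against WT with BMP-on the 27 became 41 with GC correction and 17 to 33 when a library was left out, with 17 without WT BMP-on replicate 1 or KO BMP-on replicate 3. The 0 of the interaction became 14 with DESeq2, 13 without the filter, 23 with GC correction and 0 to 14 when a library was left out. In the KO response the count called higher was 1 without the filter and 0 to 1 when a library was left out. Where 1 library is left out of a group, the fit pools the spread over the other groups. GC correction turned the KO response of *CDT1* to -0.306 (adjusted p = 0.00264) and of *POLD1* to -0.176 (0.0144), and the interaction of *TK1* to -0.219 (0.0468). It removes from each library its trend with GC content relative to the mean of all 12 libraries. A trend shared by a whole group, also one that is part of a response, is removed with it. Replicate numbers gave little sign of pairing the libraries. Residuals correlated above 0.1 in 2 of the 18 same-numbered pairs (range -0.187 to 0.189), and 2 of 12 libraries were closest to their own number. The residuals were taken without GC correction, so that a pairing hidden by the GC trends of the libraries could have been missed. With a replicate block, 6 members were called lower in the WT response, 39 in the KO response, 21 between KO and WT BMP-on cells, 0 between KO and WT BMP-off cells and 0 in the interaction.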
